A study of Mus musculus with 12 samples.

Results

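Amino acid and neurotransmitter carriers of the solute carrier families Slc1, Slc3, Slc6, Slc7, Slc36, Slc38 and Slc43 were examined in mouse colonoids treated with IL-22, IL-1b or both. Members were all symbols of the deposited count table that begin with 1 of these 7 family names followed by "a" and a number. This rule uses symbols only, but it was chosen with earlier results of these data known. The rule found 60 members among 35869 symbols. Colonoids are epithelial spheres grown from colon crypts in Matrigel, here from C57BL/6 mice, in a medium with EGF and 20% L-WRN conditioned medium, which all groups shared. The 4 groups of 3 libraries each were unstimulated, recombinant mouse IL-22 at 1 ng/mL, recombinant mouse IL-1b at 100 ng/mL, and both cytokines at these doses, all at 12 h. The treated groups' labels name the cytokine, and the doses and the time come from the shared protocol. Polyadenylated RNA was sequenced, and total counts were 4703902 to 5804033 per library. Nothing in the labels says that replicates came from separate mice or cultures, so the p-values measure only the spread between these libraries, which may be technical.

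Amino acids are charged or polar and cross membranes only through carriers, and the epithelial cell keeps different carriers on its luminal and its basolateral face. Slc3 proteins are heavy chains that do not carry amino acids themselves: each joins a light chain of the Slc7 family and brings it to the cell surface. Slc1, Slc6, Slc36 and Slc38 carriers use the gradients of sodium, chloride, potassium or protons to load the cell, and Slc43 carriers let neutral amino acids move down their own gradient. The same families hold the carriers that clear glutamate, serotonin, noradrenaline, glycine and GABA from synapses. IL-22 acts on epithelial cells through STAT3, whereas IL-1b signals through NF-kB.

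Of the 60 members, 32 passed the expression filter and were tested, 21 had counts below the filter and 7 had no count in any library. With IL-22, carriers of the apical cystine and cationic amino acid pathway and several light chains rose, led by Slc7a9 and Slc7a5, and the neutral amino acid carriers Slc43a2 and Slc6a19 fell. With both cytokines the cystine importer Slc7a11 rose more than 2-fold, and Slc6a19, Slc7a8, Slc43a3, Slc43a2, Slc6a7, Slc1a2 and Slc6a4 fell more than 2-fold. Of these, the call of Slc1a2 rested on 102 counts over all libraries and was lost in 15 of 21 alternative settings. No member was called with both cytokines against IL-22. IL-1b alone gave no called member. A gene was called where its p from the edgeR quasi-likelihood test across all 12 libraries, adjusted by Benjamini-Hochberg for the 13987 genes tested, was under 0.05. Levels are CPM, counts scaled to each library's total, changes are log2 fold changes with their standard error, and levels of different genes are compared only as CPM per kilobase of exon. The RNA is from whole cultures, so fewer cells of a type and less RNA per cell cannot be told apart.

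Sequences of 250 bases before the annotated start are shown for 3 of the 9 members called higher with IL-22 and for Slc6a19, the member with the largest fall with both cytokines. The 3 are those whose window holds a STAT motif (TTCNNNGAA) or a C/EBP-ATF motif of amino acid response genes (TGATGNAA), searched on both strands. They are RefSeq sequences of GRCm38.p6, written 5′ to 3′ on the gene's strand, which is minus for all 4, with matches to these motifs in capitals. The windows are chr3:50443614-50443863 for Slc7a11, chr5:148392816-148393065 for the window of Slc7a1 that holds a match, chr14:54417945-54418194 for 1 of the Slc7a7 starts and chr13:73692637-73692886 for Slc6a19, whose RefSeq start lies inside the longer GENCODE gene. The Slc7a1 window shown also lies inside the GENCODE gene (chromosome 5, 148327410 to 148399904), and the window at that gene's own start, chr5:148399905-148400154, holds neither motif.
Slc7a11: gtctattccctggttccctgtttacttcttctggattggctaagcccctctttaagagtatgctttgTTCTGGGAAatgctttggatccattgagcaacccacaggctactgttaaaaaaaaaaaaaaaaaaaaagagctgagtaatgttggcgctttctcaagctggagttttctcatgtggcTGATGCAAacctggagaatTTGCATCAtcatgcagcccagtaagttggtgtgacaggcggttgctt
Slc7a1: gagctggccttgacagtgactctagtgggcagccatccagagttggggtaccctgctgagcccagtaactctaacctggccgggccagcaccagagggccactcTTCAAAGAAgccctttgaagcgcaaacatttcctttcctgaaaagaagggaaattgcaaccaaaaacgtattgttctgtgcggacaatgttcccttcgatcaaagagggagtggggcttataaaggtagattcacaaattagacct
Slc7a7: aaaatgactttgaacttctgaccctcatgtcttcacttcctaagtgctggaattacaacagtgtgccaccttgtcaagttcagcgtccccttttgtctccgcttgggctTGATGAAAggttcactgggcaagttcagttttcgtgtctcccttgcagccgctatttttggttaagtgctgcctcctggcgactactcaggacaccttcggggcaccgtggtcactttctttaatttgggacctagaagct
Slc6a19: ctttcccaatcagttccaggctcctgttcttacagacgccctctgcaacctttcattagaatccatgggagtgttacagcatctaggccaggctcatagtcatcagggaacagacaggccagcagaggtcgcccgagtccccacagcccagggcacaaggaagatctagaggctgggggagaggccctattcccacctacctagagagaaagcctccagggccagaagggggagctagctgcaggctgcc

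The Slc7a11 window holds TTCTGGGAA at 183 to 175 bases before the start, and the C/EBP-ATF motif in both orientations, as TGATGCAA at 66 to 59 and as TTGCATCA at 47 to 40. The Slc7a1 window holds TTCAAAGAA at 146 to 138 bases before the start, and that of Slc7a7 holds TGATGAAA at 141 to 134. Among the members called with IL-22, 8 of 9 higher and 2 of 5 lower ones had a window that was searched, and 3 and 0 of them held 1 of these motifs. The search covered 24 of the 32 tested members with 34 windows. Chromosome 18, which holds Slc6a7, was left out for the members but not for the windows of all promoters. The STAT motif was in 3 of the 34 windows and in 7.02% of all 32851 promoter windows of this length, and the C/EBP-ATF motif in 3 of the 34 and in 3.45% of all. The 3 windows with the C/EBP-ATF motif belong to only 2 genes, Slc7a11 and Slc7a7. These shares are per window, and the share of all genes with each motif was not counted. Besides Slc7a11 and Slc7a1, the STAT motif was in the window of Slc38a9, which was not called with IL-22 (-0.57 ± 0.23). The NF-kB motif was in 19 of the 34 member windows and in 45.8% of all windows. A match describes letters in the window and was not tested as a binding site.

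In unstimulated colonoids the most abundant carriers per kilobase of exon were Slc6a14, Slc3a1 and Slc6a8. Slc6a14, which takes up neutral and cationic amino acids with sodium and chloride, had 98.6, 106 and 104 CPM per kilobase in the 3 unstimulated libraries. Slc3a1, the heavy chain of the apical cystine carrier, had 91.8, 90.3 and 102 CPM per kilobase, a range that overlaps that of Slc6a14. The creatine carrier Slc6a8 had 78.3, 86.1 and 88.1 CPM per kilobase, below every library of Slc3a1. Next came the proton-coupled carrier Slc36a1 at 41.3 ± 2.32 CPM per kilobase (SD, n = 3), the taurine carrier Slc6a6 at 34.0 ± 4.001 CPM per kilobase (SD, n = 3), the heavy chain Slc3a2 at 33.7 ± 0.287 CPM per kilobase (SD, n = 3) and the neutral amino acid exchanger Slc1a4 at 31.7 ± 0.958 CPM per kilobase (SD, n = 3). The lowest tested member was Slc1a2, the main glutamate carrier of astrocytes, at 0.168 ± 0.0182 CPM per kilobase (SD, n = 3).

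**Figure D1:**
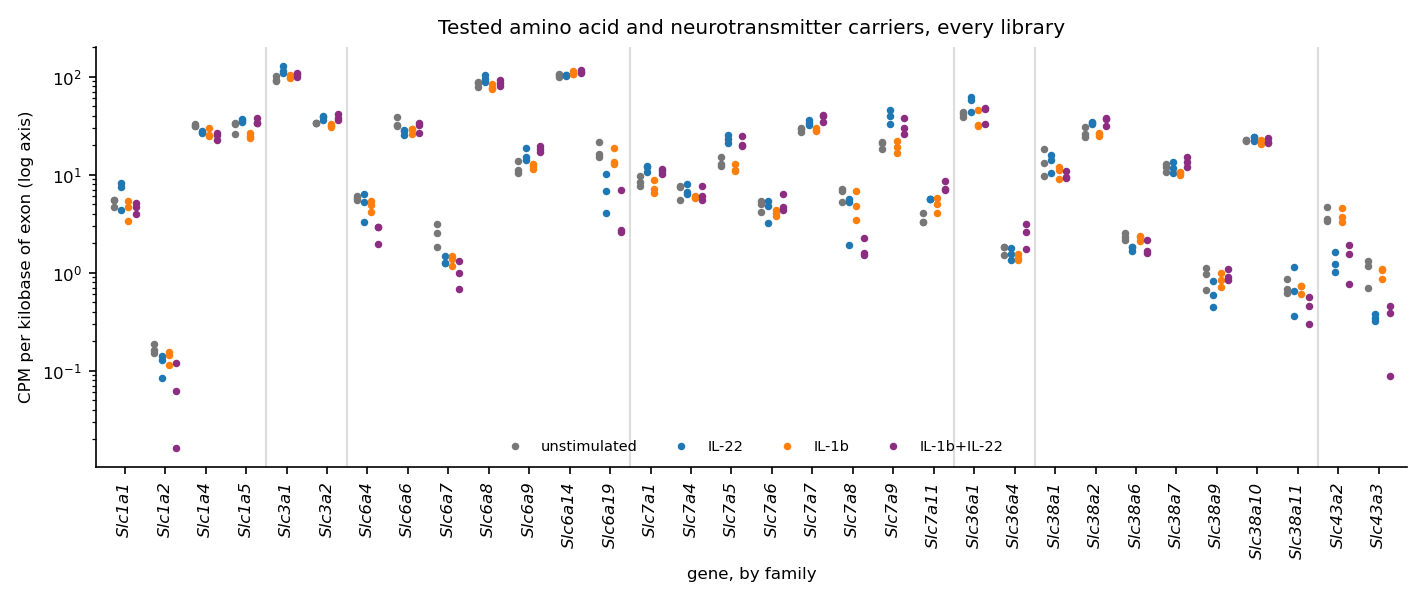
Level of each of the 32 tested members in every library, as CPM per kilobase of exon on a log axis, with 1 point per library coloured by group. Slc6a14, Slc3a1 and Slc6a8 lie highest and Slc1a2 lowest, and the groups separate for Slc43a2, Slc43a3 and Slc6a19.

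The families differed in how many members were expressed. Both Slc3 members, 8 of 15 Slc7 members, 7 of 18 Slc6 members, 7 of 11 Slc38 members, 4 of 7 Slc1 members, 2 of 4 Slc36 members and 2 of 3 Slc43 members were tested. No count was found for 7 members, among them the noradrenaline carrier Slc6a2, the neuronal glycine carrier Slc6a5, Slc6a16, the Purkinje cell glutamate carrier Slc1a6, Slc36a3 and Slc38a5. A total of 3 counts in 1 library corresponds to 0.499 to 0.665 CPM, which is the upper limit a count of 0 allows for counting error alone. A further 14 members had 1 to 5 counts over all 12 libraries, among them the dopamine carrier Slc6a3 with 2, the GABA carriers Slc6a11, Slc6a12 and Slc6a13 with 1 to 3, and the glial glutamate carrier Slc1a3 with 1. The other 9 of these were Slc1a7, Slc38a4, Slc38a8, Slc6a15, Slc6a17, Slc6a18, Slc7a10, Slc7a12 and Slc7a13. Below the filter with more counts were Slc36a2 with 78, Slc38a3 with 63, Slc7a15 with 61, the arginine carrier Slc7a3 with 59, Slc43a1 with 43, the arginine carrier Slc7a2 with 12 and Slc7a14 with 9.

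With IL-22 against unstimulated, 9 members were called higher and 5 lower, 14 of 32 tested, where 22.5% of all genes tested were called, 11.9% higher and 10.6% lower. With both cytokines against unstimulated, 8 were called higher and 8 lower, where 27% of all genes were called, 13.7% higher and 13.3% lower. The median change over the 32 members was 0.01 with IL-22 and 0.04 with both, beside medians within 0.01 of 0 over all genes tested. Changes of more than 2-fold were seen in 3 called members with IL-22 and in 8 with both. The share of all genes called with such changes was not counted, so these counts have no background beside them. With total counts as the only scaling, the split was 7 higher and 7 lower with IL-22 and 7 higher and 9 lower with both. Without unstimulated replicate 1 and IL-1b replicate 1, which were left out together because earlier results of these data set them apart, 10 members were called with IL-22 and 14 with both. In this setting 15.6% of all genes were called with IL-22 and 19.6% with both, also fewer than with all libraries.

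**Figure D2:**
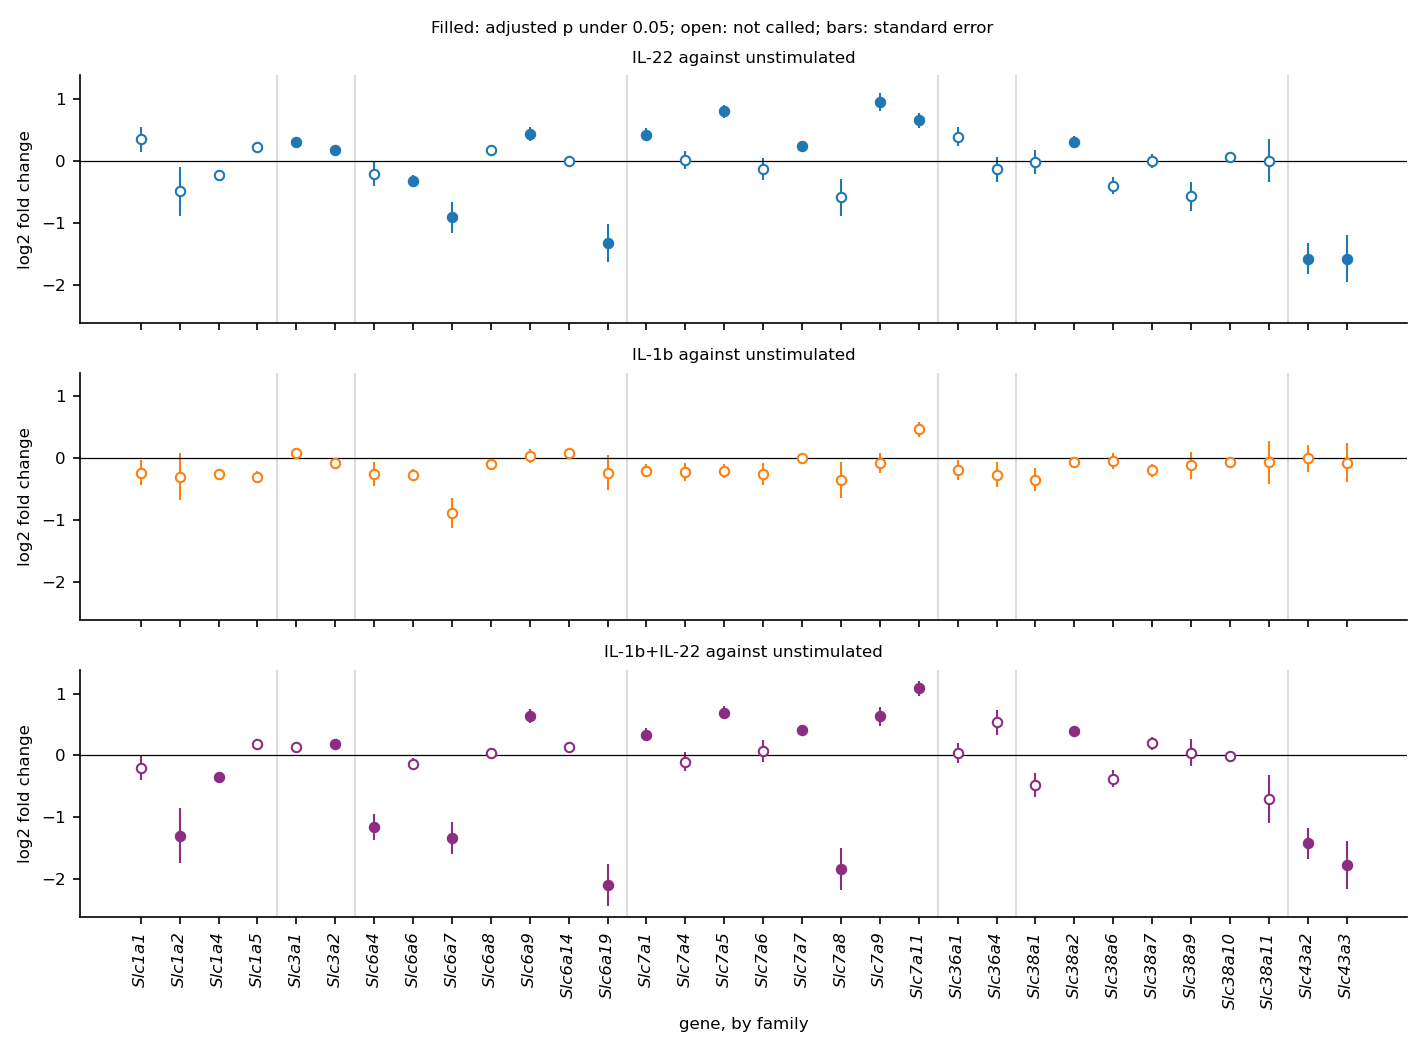
Log2 fold change with its standard error for each tested member, for IL-22, IL-1b and both cytokines against unstimulated, with filled points for called members. Slc6a19, Slc43a2, Slc43a3 and Slc7a8 lie farthest to the lower side with both cytokines and Slc7a11, Slc7a5 and Slc7a9 to the higher side, and no point is filled for IL-1b alone.

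Among the heteromeric carriers, the apical pair of Slc3a1 and Slc7a9 rose with IL-22. Slc7a9 is the light chain that takes up cystine and cationic amino acids in exchange for neutral ones, and loss of either partner causes cystinuria. Slc7a9 (chromosome 7, 35448796 to 35466036, mm10) had 48.5, 57.3 and 56.9 CPM in unstimulated cultures, 87.3, 123 and 105 after IL-22, 44.1, 59.3 and 50.9 after IL-1b and 103, 70.0 and 80.0 after both. Every library with IL-22, alone or with IL-1b, lay above every library without it. It rose by 0.95 ± 0.15 with IL-22 (adjusted p = 0.000475) and by 0.63 ± 0.15 with both (adjusted p = 0.00674). Its heavy chain Slc3a1 had 208, 205 and 232 CPM in unstimulated cultures, 259, 292 and 250.5 after IL-22, 226, 239 and 221 after IL-1b and 239.9, 246 and 223 after both. The IL-22 libraries were all above the unstimulated ones, and those with both cytokines overlapped them. Slc3a1 rose by 0.31 ± 0.07 with IL-22 (adjusted p = 0.00453), and with both it was at 0.14 ± 0.07 (adjusted p = 0.1499). Per kilobase, Slc3a1 stood at 94.7 ± 6.41 CPM per kilobase (SD, n = 3) and Slc7a9 at 20.3 ± 1.86 CPM per kilobase (SD, n = 3) in unstimulated colonoids, and at 118 ± 9.58 CPM per kilobase (SD, n = 3) and 39.3 ± 6.65 CPM per kilobase (SD, n = 3) with IL-22. Of the 2271 exon bases of Slc3a1, 601 are shared with Prepl on the other strand, and the strand used in counting is not given in the sources used here, so its counts are uncertain.

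The basolateral and general heavy chain Slc3a2, known as CD98 or 4F2hc, had 119, 118 and 120.0 CPM in unstimulated cultures, 128, 138 and 139.7 after IL-22, 112, 117 and 109 after IL-1b and 127, 146 and 134 after both. Its unstimulated libraries were close to each other and below all libraries with IL-22, alone or with IL-1b. Slc3a2 rose by 0.19 ± 0.06 with IL-22 (adjusted p = 0.0441), by 0.19 ± 0.06 with both (adjusted p = 0.0357) and by 0.27 ± 0.06 with both against IL-1b (adjusted p = 0.00603). The calls against unstimulated were lost in 14 and 10 of 21 alternatives, the DESeq2 test included (adjusted p = 0.0770 and 0.0692). Leaving out any 1 unstimulated library ended both calls, with adjusted p of 0.0861, 0.116 and 0.0765 for IL-22 and 0.0742, 0.0919 and 0.0628 for both. The IL-22 call also ended without IL-22 replicate 2 (0.123) or 3 (0.0998), IL-1b replicate 1 (0.0555) or 3 (0.0586) or replicate 3 with both (0.0502). The call with both also ended without replicate 2 (0.118) or 3 (0.0684) of that group. The call with both against IL-1b stayed in all 21 alternatives.

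Slc7a5, the light chain that brings leucine and other large neutral amino acids into growing cells in exchange for glutamine, had 55.6, 45.3 and 47.6 CPM in unstimulated cultures, 86.1, 78.4 and 95.1 after IL-22, 41.2, 47.6 and 40.4 after IL-1b and 73.6, 91.7 and 74.2 after both. All libraries with IL-22 exceeded all libraries without it. Slc7a5 (chromosome 8, 121881150 to 121907694) rose by 0.81 ± 0.11 with IL-22 (adjusted p = 0.000153), by 0.69 ± 0.11 with both (adjusted p = 0.000404) and by 0.89 ± 0.11 with both against IL-1b (adjusted p = 6.37e-05). Each of these calls stayed in all 21 alternatives. Among the 5 tested light chains known to pair with Slc3a2, it had the largest change with IL-22 alone.

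Slc7a11, which with Slc3a2 imports cystine in exchange for glutamate and so supplies cysteine for glutathione, had 57.2, 45.6 and 46.1 CPM in unstimulated cultures, 79.3, 78.0 and 79.0 after IL-22, 57.2, 80.0 and 69.2 after IL-1b and 121, 98.4 and 96.8 after both. The libraries with both cytokines were above all others, and the IL-1b libraries touched or exceeded the highest unstimulated one. Slc7a11 (chromosome 3, 49892526 to 50443614) rose by 0.66 ± 0.12 with IL-22 (adjusted p = 0.00176), by 1.08 ± 0.12 with both (adjusted p = 2.34e-05) and by 0.62 ± 0.12 with both against IL-1b (adjusted p = 0.00172). With IL-1b alone it was at 0.47 ± 0.12 (adjusted p = 0.294), and with both against IL-22 at 0.42 ± 0.12 (adjusted p = 0.228). These 2 values passed the threshold when no filter on low counts was used (adjusted p = 0.00359 and 0.00603). The difference of the IL-22 effects with and without IL-1b was -0.05 ± 0.17 (adjusted p = 0.998). It is the member whose 250 bases before the start, shown above, hold the STAT and the C/EBP-ATF motif.

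Slc7a7, the basolateral light chain that lets arginine and lysine leave the cell in exchange for neutral amino acids and sodium, had 96.4, 98.6 and 89.5 CPM in unstimulated cultures, 108, 112 and 119 after IL-22, 99.6, 95 and 91.8 after IL-1b and 115, 131 and 134 after both. All libraries with IL-22 lay above all libraries without it. It rose by 0.25 ± 0.07 with IL-22 (adjusted p = 0.0220), by 0.42 ± 0.07 with both (adjusted p = 0.000620) and by 0.41 ± 0.07 with both against IL-1b (adjusted p = 0.000802). The call with IL-22 alone ended with total counts as the only scaling (adjusted p = 0.0621), and without unstimulated replicate 3 (0.0783) or IL-22 replicate 2 (0.0538) or 3 (0.0686). The other 2 calls stayed in all 21 alternatives. Slc7a6, a light chain with the same exchange reaction, had 24.6, 19.1 and 22.9 CPM in unstimulated cultures, 24.4, 14.8 and 21.9 after IL-22, 17.3, 20.1 and 18.8 after IL-1b and 21.4, 19.8 and 28.7 after both. The ranges of its 4 groups overlapped, and it was at -0.12 ± 0.18 with IL-22 and 0.07 ± 0.18 with both (adjusted p = 0.686 and 0.816).

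Slc7a8 went the other way. This basolateral light chain of Slc3a2 exchanges small and large neutral amino acids. It had 34.0, 35.5 and 26.6 CPM in unstimulated cultures, 9.70, 28.4 and 26.2 after IL-22, 17.3, 34.4 and 24.1 after IL-1b and 11.3, 7.64 and 7.94 after both. The libraries with both cytokines were below all unstimulated and all IL-1b libraries, while IL-22 replicate 1 lay among them and the other 2 IL-22 libraries near the unstimulated ones. Slc7a8 (chromosome 14, 54722209 to 54781946) fell by 1.83 ± 0.34 with both against unstimulated (adjusted p = 0.00128) and by 1.49 ± 0.35 against IL-1b (adjusted p = 0.00608). Both calls stayed in all 21 alternatives. With IL-22 alone it was at -0.58 ± 0.30 (adjusted p = 0.193), and with both against IL-22 at -1.25 ± 0.36 (adjusted p = 0.234). The latter passed the threshold by the DESeq2 test (adjusted p = 0.0322) and without IL-22 replicate 1 (-1.61, adjusted p = 0.0216). Per kilobase, Slc7a8 was at 6.40 ± 0.956 CPM per kilobase (SD, n = 3) and Slc7a5 at 13.3 ± 1.46 CPM per kilobase (SD, n = 3) in unstimulated colonoids, and they were at 1.79 ± 0.406 CPM per kilobase (SD, n = 3) and 21.5 ± 2.77 CPM per kilobase (SD, n = 3) with both cytokines.

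**Figure D3:**
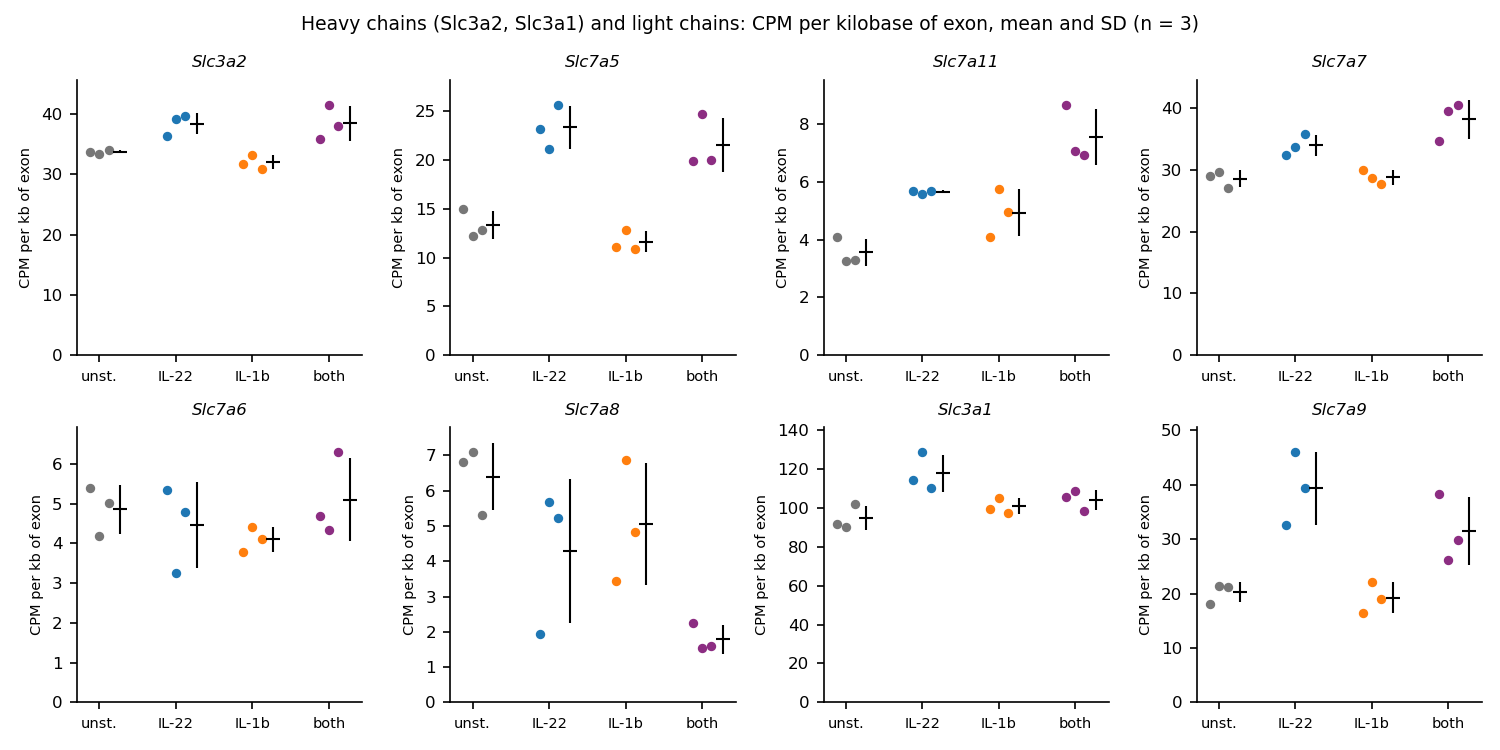
CPM per kilobase of exon of the 2 heavy chains and 6 light chains in every library, by group, with the mean and SD of 3 libraries. Slc7a5, Slc7a9 and Slc7a7 are higher in all libraries with IL-22, Slc7a11 is highest with both cytokines, and Slc7a8 is lowest with both.

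Cationic amino acids also enter through carriers that need no heavy chain. Slc7a1, the widely expressed uniporter of arginine, lysine and ornithine, had 111, 97.8 and 88.4 CPM in unstimulated cultures, 137, 122 and 141 after IL-22, 75.3, 101 and 83.0 after IL-1b and 118, 133 and 126 after both. All libraries with IL-22, alone or with IL-1b, were above all unstimulated and IL-1b libraries. Slc7a1 rose by 0.43 ± 0.10 with IL-22 (adjusted p = 0.00937), by 0.34 ± 0.10 with both (adjusted p = 0.0276) and by 0.54 ± 0.11 with both against IL-1b (adjusted p = 0.00205). The call with both against unstimulated ended without unstimulated replicate 2 (0.0776) or 3 (0.0949), or without replicate 2 (0.0751) or 3 (0.0650) of the group with both. Slc7a4, a relative in the same branch of the family, had 31.7, 31.1 and 22.9 CPM in unstimulated cultures, 26.2, 27.7 and 33.4 after IL-22, 24.3, 25.02 and 24.6 after IL-1b and 25.02, 32.1 and 22.7 after both, with overlapping ranges in all groups. It was at 0.03 ± 0.15 with IL-22 and -0.10 ± 0.15 with both (adjusted p = 0.921 and 0.654). It shares 554 exon bases with P2rx6.

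The Slc43 carriers fell. Slc43a2 moves leucine, other branched-chain amino acids, methionine and phenylalanine down their gradient and is placed on the basolateral side of the gut epithelium. It had 33.9, 46.6 and 35.1 CPM in unstimulated cultures, 12.2, 10.2 and 16.2 after IL-22, 33.1, 45.9 and 36.9 after IL-1b and 15.7, 19.4 and 7.72 after both. No library with IL-22 reached the lowest library without it. Slc43a2 (chromosome 11, 75531694 to 75577575) fell by 1.57 ± 0.25 with IL-22 (adjusted p = 0.000546), by 1.42 ± 0.25 with both (adjusted p = 0.000786) and by 1.42 ± 0.25 with both against IL-1b (adjusted p = 0.000854). Slc43a3, which carries purine nucleobases and not amino acids, had 5.17, 3.09 and 5.88 CPM in unstimulated cultures, 1.45, 1.55 and 1.70 after IL-22, 4.78, 4.89 and 3.82 after IL-1b and 2.02, 0.392 and 1.72 after both. Its libraries with IL-22 were again all below those without it, at 195 counts in all 12 libraries together. Slc43a3 fell by 1.57 ± 0.38 with IL-22 (adjusted p = 0.00902), by 1.77 ± 0.39 with both (adjusted p = 0.00422) and by 1.70 ± 0.39 with both against IL-1b (adjusted p = 0.00583). All 6 calls stayed in all 21 alternatives. Slc43a2 shares 922 exon bases with the gene model Gm45606.

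Slc6a19 is the main sodium-coupled neutral amino acid carrier of the brush border. It had 75.7, 81.7 and 109 CPM in unstimulated cultures, 20.2, 34.1 and 51.3 after IL-22, 64.9, 94.2 and 68.0 after IL-1b and 13.1, 35.1 and 13.7 after both. All libraries with IL-22 were below all libraries without it, and replicate 2 of the group with both stood apart from the other 2. Slc6a19 (chromosome 13, 73679745 to 73704865) fell by 1.32 ± 0.31 with IL-22 (adjusted p = 0.00722), by 2.09 ± 0.33 with both (adjusted p = 0.000413) and by 1.86 ± 0.34 with both against IL-1b (adjusted p = 0.00120). Without replicate 2 of the group with both, the last 2 were -2.72 and -2.49. All 3 calls stayed in all 21 alternatives.

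Slc6a14, the most abundant member per kilobase, had 339, 365 and 357 CPM in unstimulated cultures, 362, 358 and 346 after IL-22, 390.2, 367 and 369 after IL-1b and 385, 403 and 374 after both. The libraries with both cytokines were above all unstimulated ones, and the IL-22 libraries overlapped them. It was at 0.01 ± 0.05 for IL-22, 0.09 ± 0.05 for IL-1b and 0.13 ± 0.05 for both (adjusted p = 0.945, 0.574 and 0.0613). The last value passed without IL-22 replicate 3 (adjusted p = 0.0481).

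**Figure D4:**
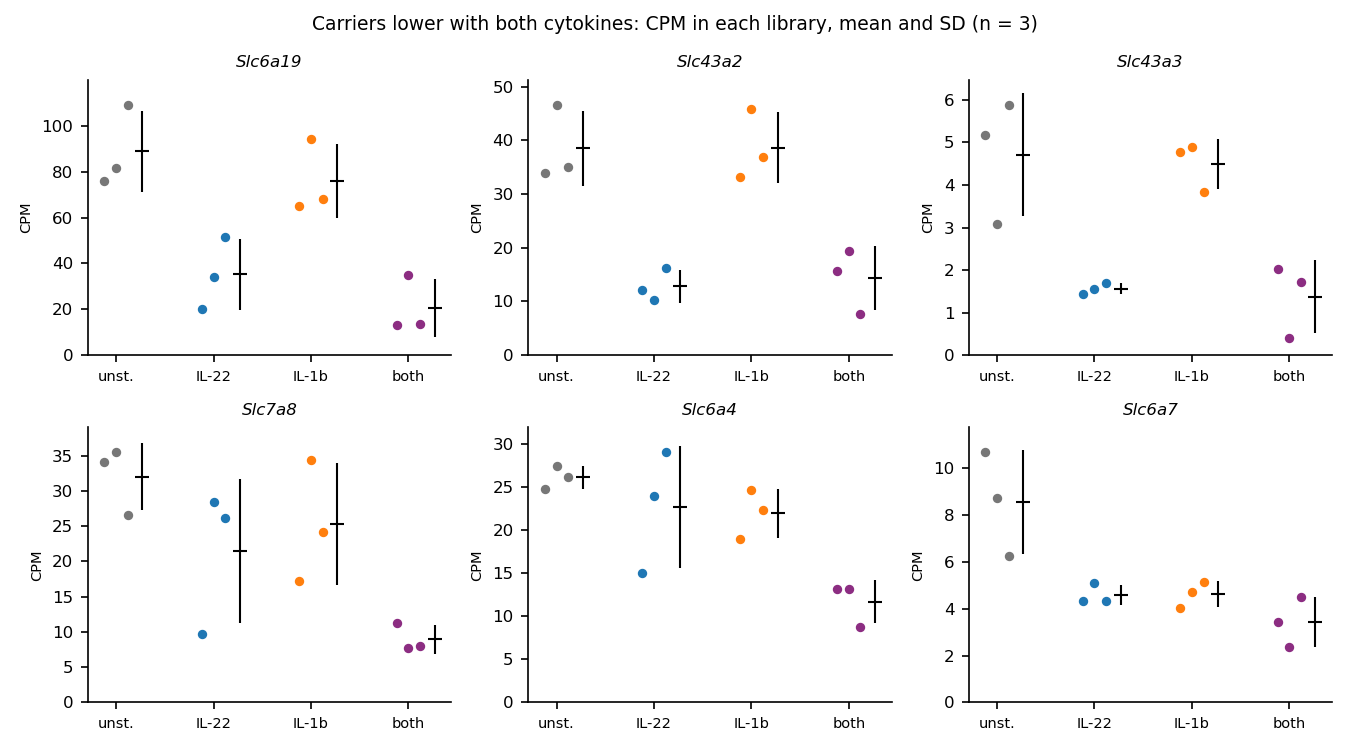
CPM of the carriers Slc6a19, Slc43a2, Slc43a3, Slc7a8, Slc6a4 and Slc6a7 in every library, by group, with the mean and SD of 3 libraries. Slc6a19, Slc43a2 and Slc43a3 are lower in every library with IL-22, alone or with IL-1b, than in any unstimulated library, and Slc7a8 and Slc6a4 are lower in the 3 libraries with both cytokines than in any unstimulated library.

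The Slc1 family holds sodium-coupled glutamate carriers and neutral amino acid exchangers. Slc1a5, the exchanger that brings glutamine into growing cells, had 141, 137 and 108 CPM in unstimulated cultures, 155, 152 and 145 after IL-22, 98.9, 112 and 104 after IL-1b and 139.8, 157 and 140.3 after both. Libraries with IL-22 were all above those with IL-1b alone, and IL-22 replicates overlapped none of the unstimulated ones. Slc1a5 rose by 0.48 ± 0.09 with both against IL-1b (adjusted p = 0.00150), and against unstimulated it was at 0.22 ± 0.09 with IL-22 (adjusted p = 0.0808) and -0.30 ± 0.09 with IL-1b (adjusted p = 0.338). The IL-22 value passed without unstimulated replicate 1 (adjusted p = 0.0446), and the IL-1b value passed without unstimulated replicate 3 (-0.40, adjusted p = 0.0358). Slc1a4, which exchanges alanine, serine and cysteine, had 129, 123 and 122 CPM in unstimulated cultures, 106, 108 and 109 after IL-22, 97.6, 117 and 99.6 after IL-1b and 101, 89.4 and 104 after both. Every treated library was below every unstimulated one. It fell by 0.34 ± 0.07 with both (adjusted p = 0.00374), a call that stayed in all 21 alternatives, and was at -0.21 ± 0.07 with IL-22 (adjusted p = 0.0533), a value that passed in 5 of them, among them without IL-1b replicate 2 (0.0357) and without replicate 2 with both (0.0352).

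Slc1a1, the epithelial carrier of glutamate, aspartate and cysteine, had 45.1, 46.0 and 39.1 CPM in unstimulated cultures, 36.3, 62.5 and 67.5 after IL-22, 27.7, 44.4 and 39.1 after IL-1b and 42.2, 38.6 and 32.8 after both. IL-22 replicate 1 lay below the unstimulated libraries and the other 2 IL-22 libraries above them. It was at 0.35 ± 0.20 with IL-22 (adjusted p = 0.224), and 0.58 without IL-22 replicate 1 (adjusted p = 0.0188). With both against IL-22 it was at -0.55 ± 0.20 (adjusted p = 0.376), or -0.78 without that library (adjusted p = 0.0473). Slc1a2 had 2.14, 2.00 and 2.47 CPM in unstimulated cultures, 1.86, 1.11 and 1.70 after IL-22, 2.02, 1.88 and 1.50 after IL-1b and 0.807, 1.57 and 0.215 after both, from 102 counts in all. The libraries with both cytokines were below the unstimulated ones, and 1 of them held a single count. It fell by 1.30 ± 0.44 with both (adjusted p = 0.0424), and this call was lost in 15 of 21 alternatives, with adjusted p of up to 0.164. The losses include leaving out unstimulated replicate 1, 2 or 3 (0.0821, 0.0763 and 0.0968), IL-22 replicate 3 (0.0507), IL-1b replicate 1, 2 or 3 (0.0532, 0.0563 and 0.0555), and replicate 1 or 3 with both (0.110 and 0.164). Without replicate 2 of the group with both it was -2.03 against unstimulated (adjusted p = 0.0106) and -1.74 against IL-1b (adjusted p = 0.0302).

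Slc36 carriers couple small neutral amino acids such as proline, glycine and alanine to protons. Slc36a1 had 233, 245 and 219 CPM in unstimulated cultures, 245, 323 and 349.7 after IL-22, 177, 255 and 179.9 after IL-1b and 268, 263 and 187 after both. IL-22 replicates 2 and 3 were above all unstimulated libraries, IL-22 replicate 1 was level with unstimulated replicate 2, and the group with both overlapped the unstimulated one. It was at 0.40 ± 0.16 with IL-22 (adjusted p = 0.0854), a value that passed without IL-22 replicate 1 (0.53, adjusted p = 0.0287), without IL-1b replicate 2 (0.0497) or without replicate 3 with both (0.0495). Slc36a4, a proline and tryptophan carrier, had 11.9, 9.82 and 11.9 CPM in unstimulated cultures, 10.1, 8.86 and 11.7 after IL-22, 10.1, 8.84 and 9.15 after IL-1b and 11.3, 20.6 and 16.9 after both. Replicates 2 and 3 with both were above all other libraries, and replicate 1 lay within the unstimulated range. It rose by 0.80 ± 0.20 with both against IL-1b (adjusted p = 0.00974), a call that ended without replicate 2 with both (adjusted p = 0.0530). With both against unstimulated it was at 0.53 ± 0.20 (adjusted p = 0.0584), and 0.74 without replicate 1 with both (adjusted p = 0.00807).

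Of the Slc38 family, which takes up glutamine and small neutral amino acids with sodium at the surface or moves them out of lysosomes, Slc38a2 rose. Slc38a2 is a surface carrier known to be induced when amino acids are short. It had 272, 232 and 213 CPM in unstimulated cultures, 289, 300.4 and 307 after IL-22, 236, 230.3 and 220.2 after IL-1b and 280.1, 337 and 326 after both. All libraries with IL-22 were above all those without it. It rose by 0.32 ± 0.08 with IL-22 (adjusted p = 0.0133), by 0.39 ± 0.08 with both (adjusted p = 0.00307) and by 0.46 ± 0.08 with both against IL-1b (adjusted p = 0.00121). The call with IL-22 alone ended without unstimulated replicate 2 (0.0580) or 3 (0.0522). Slc38a7, a lysosomal carrier of glutamine and asparagine, had 52.9, 49.8 and 44.2 CPM in unstimulated cultures, 43.2, 48.1 and 56.4 after IL-22, 41.3, 43.3 and 43.9 after IL-1b and 55.3, 62.5 and 50.2 after both. The libraries with both were above all IL-1b libraries and overlapped the unstimulated ones. Slc38a7 rose by 0.39 ± 0.11 with both against IL-1b (adjusted p = 0.0165), a call that ended without IL-1b replicate 1 (0.0615) or replicate 2 with both (0.0796).

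Slc38a1, the close relative of Slc38a2, had 313, 226 and 166 CPM in unstimulated cultures, 179, 277 and 245 after IL-22, 157, 209 and 191 after IL-1b and 159, 187 and 162 after both. Its unstimulated libraries spread widely, with replicate 1 highest, and no group stood clear of them. It was at -0.01 ± 0.19 with IL-22 and -0.47 ± 0.19 with both (adjusted p = 0.982 and 0.0857), and the latter was -0.67 without unstimulated replicate 3 (adjusted p = 0.0110). Slc38a10 had 145, 141 and 145 CPM in unstimulated cultures, 140.2, 155 and 157 after IL-22, 131, 146 and 137 after IL-1b and 140.0, 152 and 137 after both, with overlapping ranges. It was at 0.07 ± 0.06 with IL-22 and -0.01 ± 0.06 with both (adjusted p = 0.451 and 0.945). The other 3 tested members of the family were Slc38a6, Slc38a9, the lysosomal arginine sensor of mTORC1, and Slc38a11, each at most 19.6 CPM in any library. None of them was called, and with IL-22 they were at -0.39 ± 0.14, -0.57 ± 0.23 and 0.01 ± 0.35 and with both at -0.37 ± 0.14, 0.04 ± 0.22 and -0.70 ± 0.38. Under at least 1 alternative Slc38a6 passed with IL-22 (lowest adjusted p = 0.0359), with both (0.0201) and with both against IL-1b (0.0278), and Slc38a9 with IL-22 (0.0257).

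The Slc6 carriers of transmitters and osmolytes were split. Slc6a9, the glycine carrier that also supplies glycine for glutathione, had 70.6, 57.8 and 53.5 CPM in unstimulated cultures, 72.1, 77.3 and 96.7 after IL-22, 58.6, 66.4 and 62.4 after IL-1b and 88.6, 93.9 and 100.4 after both. All libraries with IL-22 lay above all libraries without it. It rose by 0.44 ± 0.12 with IL-22 (adjusted p = 0.0145), by 0.63 ± 0.11 with both (adjusted p = 0.00105) and by 0.59 ± 0.11 with both against IL-1b (adjusted p = 0.00177). The call with IL-22 alone ended when unstimulated replicate 2 (0.0644), unstimulated replicate 3 (0.0564) or IL-22 replicate 3 was left out (0.0644), and the value without the last was 0.30. Of its 5141 exon bases, 1429 are shared with Ccdc24, so its counts are uncertain.

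Slc6a4, the serotonin carrier by which the gut epithelium takes up serotonin, had 24.8, 27.5 and 26.2 CPM in unstimulated cultures, 15.1, 23.9 and 29.0 after IL-22, 18.9, 24.6 and 22.3 after IL-1b and 13.1, 13.1 and 8.80 after both. The 3 libraries with both cytokines were below all others, and IL-22 replicate 1 was the lowest of the rest. Slc6a4 (chromosome 11, 76998603 to 77032340) fell by 1.15 ± 0.21 with both against unstimulated (adjusted p = 0.00122) and by 0.90 ± 0.22 against IL-1b (adjusted p = 0.00704), and both calls stayed in all 21 alternatives. With IL-22 alone it was at -0.20 ± 0.20 (adjusted p = 0.510) and with both against IL-22 at -0.95 ± 0.22 (adjusted p = 0.116). The last value passed by the DESeq2 test (adjusted p = 0.0160) and was -1.18 without IL-22 replicate 1 (adjusted p = 0.0121). Slc6a7, a proline carrier known from brain, had 10.7, 8.73 and 6.26 CPM in unstimulated cultures, 4.34, 5.09 and 4.34 after IL-22, 4.04, 4.70 and 5.16 after IL-1b and 3.43, 2.35 and 4.51 after both, from 336 counts in all. Every treated library was below every unstimulated one. It fell by 0.90 ± 0.25 with IL-22 (adjusted p = 0.0179) and by 1.33 ± 0.26 with both (adjusted p = 0.00183), and with IL-1b it was at -0.88 ± 0.24 (adjusted p = 0.294). The call with IL-22 ended when unstimulated replicate 1 (0.0868), unstimulated replicate 2 (0.0582) or IL-22 replicate 1 was left out (0.0553), while that with both stayed in all 21 alternatives.

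Slc6a6, the taurine carrier, had 326, 271 and 265 CPM in unstimulated cultures, 234, 218 and 241 after IL-22, 248, 250.2 and 221 after IL-1b and 224, 286 and 274 after both. The IL-22 libraries were below the unstimulated ones, and the libraries with both overlapped them. It fell by 0.32 ± 0.09 with IL-22 (adjusted p = 0.0282), a call that ended without unstimulated replicate 1 (0.127) or IL-22 replicate 1 (0.0595) or 2 (0.110). With both it was at -0.14 ± 0.09 (adjusted p = 0.298), and the difference between the IL-22 effects with and without IL-1b was 0.44 ± 0.13 (adjusted p = 0.924). Slc6a8, the creatine carrier, had 408, 448 and 459 CPM in unstimulated cultures, 461, 544 and 488 after IL-22, 403, 440.4 and 388 after IL-1b and 481, 454 and 415 after both, with the IL-22 libraries just above the unstimulated range. It was at 0.18 ± 0.07 with IL-22 and 0.04 ± 0.07 with both (adjusted p = 0.0927 and 0.728), and the IL-22 value passed without IL-22 replicate 1 (adjusted p = 0.0499).

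Treatment with IL-1b alone against unstimulated gave no called member in the edgeR test, where 0.0715% of all genes were called. At an unadjusted p under 0.05 there were 5 members by edgeR (9.57% of all genes), and the DESeq2 test called 0 (0.229% of all genes). Without a filter on low counts 2 members were called, Slc7a11 and Slc1a5 (0.87% of all genes). The change was below 0 for 26 of the 32 members, with a median of -0.19 beside -0.01 over all genes. The median was -0.10 without unstimulated replicate 1. It was -0.11 without IL-1b replicate 1, without IL-1b replicate 3, and with the filter of at least 1 CPM in 6 libraries. The first 3 of these settings tested 33 members and the last tested 35, in place of 32. Without both unstimulated replicate 1 and IL-1b replicate 1 the median was -0.07, with 32 members tested. The lowest adjusted p was that of 2 members, Slc7a11 and Slc6a7, at 0.294.

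For both cytokines against IL-22, the comparison that shows what IL-1b adds, no member was called by edgeR, where 0.0786% of all genes were called. At an unadjusted p under 0.05 there were 12 members by edgeR (10.3% of all genes), and the DESeq2 test called 2, Slc6a4 and Slc7a8, both lower (0.622% of all genes). With no filter 7 members were called (1.38% of all genes): Slc7a11 higher, and Slc1a1, Slc36a1, Slc38a1, Slc6a19, Slc6a4 and Slc7a8 lower. For both against IL-1b, which shows what IL-22 adds, 11 members were called higher and 5 lower, where 26.3% of all genes were called, 13.3% higher and 13% lower. Of these 16 calls, 14 stayed in all 21 alternatives. The effect of IL-22 did not differ detectably with IL-1b present: no interaction was called by edgeR among members or among all genes (0%), 6 members were at an unadjusted p under 0.05 (5.04% of all genes), the lowest adjusted p was 0.924, and the DESeq2 test called 0 members (0.0286% of all genes). With no filter 1 member, Slc6a6, was called (0.205% of all genes). The standard errors of this difference were 0.07 to 0.61.

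IL-22 against unstimulated and both against IL-1b share no library. In them 11 members were called in the same direction, 8 higher and 3 lower, and 0 in opposite directions. The 8 higher were Slc38a2, Slc3a2, Slc6a9, Slc7a1, Slc7a11, Slc7a5, Slc7a7 and Slc7a9, and the 3 lower were Slc43a2, Slc43a3 and Slc6a19. They make up 78.6% of the 14 calls of the first and 68.8% of the 16 of the second, beside 72.4% and 61.8% over all genes. The sign was the same for 27 of the 32 members (84.4%, beside 78.6% of all genes), and across the 32 members the changes had a Pearson r of 0.843 and a Spearman rho of 0.762, given as a description, since genes are not independent replicates.

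Genes that use or sense the carried amino acids were described by counts in lists, with no test of the list. The lists were chosen with earlier results of these data known. Of 29 tested genes of the ATF4 amino acid response, which cells switch on when amino acids are short, 17 were called higher and 3 lower with IL-22, with a median of 0.39, and 15 and 3 with both, with a median of 0.31. In all, 69% of the list was called with IL-22 and 62.1% with both, where 22.5% and 27% of all genes were, and of all genes 11.9% and 13.7% were called higher and 10.6% and 13.3% lower. Over the 21 alternatives these counts were 16 to 20 higher and 0 to 3 lower with IL-22, and 12 to 18 higher and 3 lower with both. The largest changes with IL-22 were those of Cbs, of transsulfuration (-1.31 ± 0.38), Chac1, which breaks down glutathione (1.02 ± 0.10), the serine synthesis enzyme Psat1 (0.70 ± 0.10) and the mitochondrial folate enzyme Mthfd2 (0.70 ± 0.06). The IL-22 call of Cbs ended without unstimulated replicate 1 (0.102) or 2 (0.101) and likewise IL-22 replicate 2 (0.109) or 3 (0.0668), given as adjusted p. With both they were -1.82 ± 0.40 for Cbs, 1.03 ± 0.10 for Chac1, -0.82 ± 0.16 for the alanine aminotransferase Gpt2 and 0.64 ± 0.10 for Psat1. Chac1 had 35.99, 40.6 and 31.9 CPM in unstimulated cultures, 67.3, 74.9 and 78.3 after IL-22, 31.2, 32.7 and 36.4 after IL-1b and 72.4, 78.8 and 69.7 after both, so its libraries with IL-22 were all above those without it.

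Of 19 tested genes of cystine use, glutathione and the NRF2 response, 5 were called higher and 2 lower with IL-22, and 6 and 3 with both. These are 36.8% with IL-22 and 47.4% with both, against 22.5% and 27% of all genes. Over the 21 alternatives these counts were 3 to 6 higher and 1 to 4 lower with IL-22, and 4 to 7 higher and 1 to 4 lower with both. The haem oxygenase Hmox1 changed by 0.79 ± 0.11 with IL-22 and 0.52 ± 0.11 with both, the epithelial glutathione peroxidase Gpx2 by 0.59 ± 0.08 and 0.62 ± 0.08, and the quinone reductase Nqo1 by -0.47 ± 0.10 and -0.32 ± 0.09. Gsr, which reduces glutathione, rose by 0.28 ± 0.05 with IL-22, and the malic enzyme Me1 by 0.66 ± 0.11 with both. The call of Nqo1 with both ended without unstimulated replicate 3 (0.0695) and likewise both-cytokine replicate 2 (0.0716). Of 17 tested genes of arginine, polyamine and nitric oxide metabolism, 4 were called higher with IL-22 and 5 with both, and 0 lower in either. The share called was 23.5% with IL-22 and 29.4% with both, near the 22.5% and 27% of all genes called in either direction. All these calls were higher, and of all genes 11.9% with IL-22 and 13.7% with both were called higher. For this list the counts were 4 to 6 higher and 0 to 1 lower with IL-22, and 3 to 6 higher and 0 to 2 lower with both. Nos2, the inducible nitric oxide synthase, which uses arginine, rose by 1.90 ± 0.22 after IL-22, 2.00 ± 0.21 after IL-1b and 2.97 ± 0.21 with both, and Gatm, which makes the creatine precursor from arginine, by 1.42 ± 0.15 with IL-22 and 0.81 ± 0.15 with both. The spermine oxidase Smox rose by 0.84 ± 0.10 and 0.86 ± 0.10, and the antizyme inhibitor Azin1 by 0.29 ± 0.05 and 0.20 ± 0.05, where the latter call ended without unstimulated replicate 2 (0.0578) and likewise both-cytokine replicate 1 (0.0572). Nos2 was the 1 gene of the 7 lists of related genes that was called with IL-1b alone, and it was called with both against IL-22 (1.07 ± 0.18) as well, a call that ended without IL-22 replicate 2 (0.217), IL-1b replicate 1 (0.0555) or 2 (0.102) or 3 (0.0869) and likewise both-cytokine replicate 2 (0.118) or 3 (0.192).

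Of 15 tested genes of glutamine, glutamate, proline and branched-chain amino acid metabolism, 1 was called higher and 7 lower with IL-22, with a median of -0.25, and 1 and 7 with both, with a median of -0.26. The called share was 53.3% with IL-22 and 53.3% with both, beside 22.5% and 27% of all genes. Over the 21 alternatives these counts were 1 higher and 5 to 8 lower with IL-22, and 1 higher and 5 to 9 lower with both. Genes of branched-chain breakdown were among those that fell: Bckdha by 0.70 ± 0.11 with IL-22 and 0.57 ± 0.10 with both, Ivd by 0.54 ± 0.09 and 0.77 ± 0.09, and Dbt by 0.53 ± 0.09 and 0.48 ± 0.09. The mitochondrial branched-chain aminotransferase Bcat2 fell by 0.44 ± 0.09 with IL-22. Of 31 tested genes of amino acid sensing by mTORC1, 3 were called higher and 4 lower with IL-22, and 2 and 2 with both, beside a median of -0.08 and -0.12. That is 22.6% of the list with IL-22 and 12.9% with both, where 22.5% and 27% of all genes were called, so the share was near that of all genes with IL-22 and below it with both. The ranges over the alternatives were 0 to 3 higher and 0 to 8 lower with IL-22, and 0 to 3 and 1 to 6 with both. The arginine sensor Castor1, listed as Gatsl3, fell by 1.17 ± 0.35 with IL-22, and Flcn by 0.36 ± 0.12, Pqlc2, a lysosomal carrier of cationic amino acids, by 0.31 ± 0.10 and Tsc1 by 0.31 ± 0.08. The Gatsl3 call ended without unstimulated replicate 2 (0.0751) or 3 (0.0965) and likewise IL-22 replicate 1 (0.0989) or 2 (0.0768), that of Flcn without unstimulated replicate 1 (0.140) or 2 (0.107), IL-22 replicate 1 (0.0750) or 2 (0.109) or 3 (0.0651) and likewise IL-1b replicate 3 (0.0524), and that of Pqlc2 without unstimulated replicate 1 (0.112) or 2 (0.0992), IL-22 replicate 1 (0.134) or 2 (0.0944) and likewise IL-1b replicate 1 (0.0532) or 3 (0.0535). With both, Rptor fell by 0.42 ± 0.10 and Tsc1 by 0.28 ± 0.08, while Sec13 rose by 0.25 ± 0.07 and Seh1l by 0.20 ± 0.06. Here the Tsc1 call ended without both-cytokine replicate 1 (0.0728) or 3 (0.0553), that of Sec13 without unstimulated replicate 1 (0.111) and likewise both-cytokine replicate 1 (0.109) or 3 (0.0734), and that of Seh1l without unstimulated replicate 2 (0.139) or 3 (0.0707) and likewise both-cytokine replicate 1 (0.0982) or 3 (0.0871). With total counts as the only scaling the calls of Sec13 and Seh1l ended too (0.0541 and 0.0751).

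Among 5 tested genes of tryptophan and serotonin metabolism, Ddc, which makes serotonin from its precursor, fell by 0.80 ± 0.09 with IL-22 and 0.77 ± 0.09 with both, Wars rose by 0.29 ± 0.05 and 0.28 ± 0.05, and the amine oxidase Maob fell by 0.47 ± 0.12 with both. Of 11 tested carriers and carrier partners of amino acids and peptides outside the 7 families, 3 were called lower with IL-22 and 5 with both, and 0 higher in either. The lower calls are 27.3% of this list with IL-22 and 45.5% with both, where 10.6% and 13.3% of all genes were called lower and 22.5% and 27% in either direction. The counts of this list were 0 higher and 1 to 4 lower with IL-22, and 0 higher and 3 to 5 lower with both. They include the lysosomal cystine exporter Ctns (-0.49 ± 0.13 with IL-22 and -0.68 ± 0.13 with both), Slc15a4, a lysosomal peptide and histidine carrier (-0.29 ± 0.09 and -0.48 ± 0.09), and with both the apical peptide carrier Slc15a1 (-0.41 ± 0.11). The calls with IL-22 ended without IL-22 replicate 1 (0.0510) for Ctns and without unstimulated replicate 1 (0.0979) or 2 (0.117) and likewise IL-22 replicate 1 (0.0997) or 2 (0.0545) for Slc15a4, and that of Slc15a1 with both ended without unstimulated replicate 3 (0.0599) and likewise both-cytokine replicate 3 (0.0703). In the interaction, 0 genes of the 7 lists were called by edgeR, as over all genes.

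**Figure D5:**
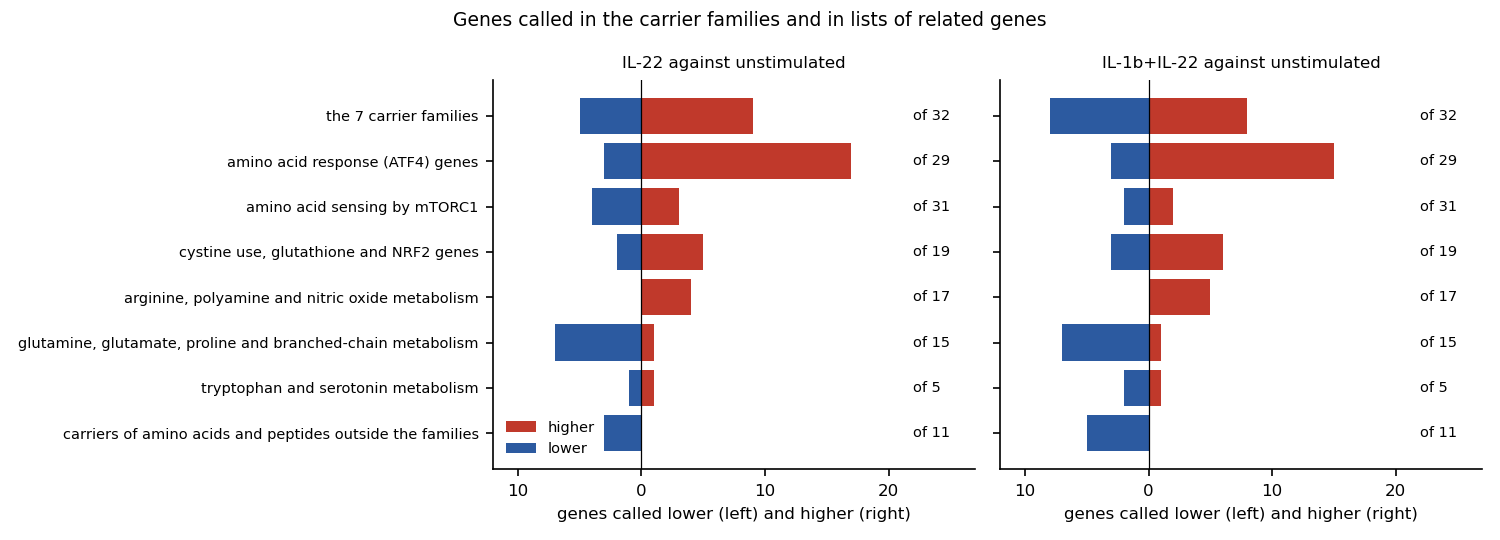
Number of genes called higher and lower in each list of related genes, with IL-22 and with both cytokines against unstimulated. The ATF4 list has 17 higher and 3 lower with IL-22, whereas the glutamine and branched-chain list has 1 higher and 7 lower and the list of other carriers 0 higher and 3 lower.

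All 19 markers of colon epithelium were tested, with a summed level of 4796 to 5062 CPM in unstimulated libraries, 4949 to 5576 with IL-22, 4499 to 4911 with IL-1b and 5139 to 5355 with both. Leukocyte markers passed the filter for 4 of 14 genes, with sums of 66.8 to 75.9, 103 to 123, 93.7 to 147 and 104 to 120 CPM in that order of groups, and Tyrobp was among those at 0. Ptprc, the pan-leukocyte marker, had 0, 0.364 and 0.379 CPM in unstimulated and 19.1, 3.76 and 2.00 with IL-1b, highest in IL-1b replicate 1. Nearly all of the unstimulated sum thus came from other genes of the list. With IL-1b against unstimulated the 4 tested leukocyte markers had a median change of 2.51, with 0 called, beside a median of -0.01 over all genes. With both against IL-1b, 1 of them was called higher and 2 lower, where 13.3% of all genes were called higher and 13% lower. Fibroblast and smooth muscle markers passed for 2 of 11 genes, with sums of 47.2 to 63.5, 34.9 to 43.9, 54.6 to 64.0 and 28.3 to 33.9 CPM and Lum at 0. These sums were lower in both groups with IL-22, as were Slc43a2, Slc43a3 and Slc6a19. In each of these groups 1 of the 2 tested markers was called lower against unstimulated and the other was not called. Endothelial markers passed for 2 of 8 genes, with sums of 8.53 to 11.0, 4.15 to 5.76, 9.41 to 12.3 and 3.83 to 7.45 CPM. The endothelial sums were likewise lower in both groups with IL-22. Against unstimulated, the 2 tested endothelial markers had a median change of -1.52 with IL-22, with 1 called lower. With both cytokines it was -1.28, with 2 called lower. Of all genes, 10.6% and 13.3% were called lower in these comparisons. Neuronal and glial markers passed for 2 of 11 genes, with sums of 10.9 to 13.5, 11.5 to 19.7, 11.6 to 19.3 and 15.9 to 18.5 CPM, and Nos1 and Sox10 were at 0. The part of these cells in the changes of the carriers was not tested. All 60 members were placed in the GENCODE M21 annotation, and 10 of the 32 tested ones share exon bases with another gene model: Slc1a1, Slc1a2, Slc38a10, Slc38a9, Slc3a1, Slc43a2, Slc6a6, Slc6a9, Slc7a4 and Slc7a7.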

How the data were processed

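Whole-number counts per gene symbol for 12 libraries were taken from the deposited table. The authors worked on mm10 (the submitters' processing notes name this build), and for the aligner, the counter, its annotation and the counting strand the entry is: not given in the sources used here. The library kit was stranded, per the labels. Counts of 13987 genes kept by filterByExpr were scaled by TMM and fitted with 1 mean per group by the quasi-likelihood method of edgeR 4.0.16 in R 4.3.3 (8 residual degrees of freedom), and p-values were adjusted over all genes. CPM was computed from the scaled total of tested genes. Exon lengths, positions and overlaps came from GENCODE M21 on mm10, and promoters from RefSeq GRCm38.p6. The script was tested on simulated data.

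Members and lists were chosen with earlier results of these data known. Tested members that were called in any comparison, or had a mean of 20 CPM or more in a group, are given in every library, and list genes are the called ones with the largest changes, at most 4 per list, for IL-22 and for both cytokines against unstimulated. Of the rule, uncalled list genes, list genes of the other comparisons (Nos2 apart) and single marker genes (Ptprc apart) are left out for length, and a few genes are not reported here. Alternatives were edgeR with DESeq2 size factors, the Wald test of DESeq2 1.42.0, total counts as the scaling, no filter beyond 1 count, at least 1 CPM in 6 libraries, a replicate block, the compared groups alone, removal of a trend with counts per exon base (lowess span 0.3), each library left out in turn, and, chosen after seeing the data, 2 libraries left out together.

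Precision rests on 3 libraries a group and on 4703902 to 5804033 counts per library. Replicate numbers are shared between groups. Same-numbered libraries correlated by -0.188 to 0.179 in their deviations from the group means, so the numbers were not taken as pairs.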

Additional observations from a re-analysis of the deposited data

How the results depend on the processing

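Over the 5 comparisons of groups, 46 calls of members were made, 35 stayed in all 21 alternatives, 11 were lost in at least 1, and 0 changed sign. With IL-1b alone, 0 members were called, 2 were without a filter on low counts (Slc7a11 higher, Slc1a5 lower), and leaving out each library in turn gave 0 to 1. With both against IL-22, 0 became 2 by DESeq2 and 7 without a filter, and 0 to 3 with each library left out. In the interaction, 0 became 1 without a filter (Slc6a6). Leaving out each library in turn gave 10 to 16 members with IL-22, 13 to 17 with both and 15 to 17 with both against IL-1b. Of all genes, 14% to 23.6%, 18.6% to 28.6% and 18.1% to 27% were called in these settings, in that order of comparisons. Total counts as the only scaling moved the share of all IL-22 calls that are higher from 52.8% to 37.7%, and gave 7 higher and 7 lower members in place of 9 and 5. The cause of these shifts was not tested.

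With the replicate block, the 6 comparisons called 14, 0, 15, 0, 16 and 0 members, against 14, 0, 16, 0, 16 and 0 without it. Only 2 of 12 libraries correlated best with their own number, and the lost call was that of Slc1a2. Called members with low depth are Slc1a2 with 102 counts over all libraries, Slc43a3 with 195 and Slc6a7 with 336, where the calls of Slc43a3 stayed in all 21 alternatives. Of the tested members that were not called, Slc38a11 had 175.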
